A study of Mus musculus with 6 samples.

Results

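The replication fork and origin machinery is the set of proteins that open the DNA double helix at chosen sites and copy it in S phase. Its 43 genes were taken by symbol from a fixed list of polymerase, clamp, helicase, origin and histone-handling genes, and all 43 were found among the 24062 genes of the deposited table. Their RNA was measured in hematopoietic stem cells (HSC), the cells that maintain the blood, sorted from mice of 2 genotypes with 3 libraries each. Control mice had the genotype Nr4a1 fl/fl; Nr4a3-/-, so both groups lacked Nr4a3 and carried floxed Nr4a1. CDKO mice carried in addition the construct labelled Rosa26-ERt2. By background, ERt2 fusions of Cre recombinase are switched on by tamoxifen, and the Rosa26 locus is active in most cell types, not in HSC alone. All mice, controls included, were given tamoxifen at 120 mg per kg on 4 successive days, and the sort was done on day 5. From 3 to 5 mice were pooled for each library, and neither the markers of the sort nor the age of the mice is given in the sources used here.

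Copying of a chromosome begins where the origin recognition complex (ORC) marks a site and lets the MCM helicase be loaded. In S phase a kinase made of Cdc7 and Dbf4, together with Cdc45 and the GINS complex, turns the loaded helicase on. Polymerase alpha and its primase then lay down primers, polymerase epsilon extends the leading strand and polymerase delta the lagging strand, both held to DNA by the clamp PCNA. Most adult HSC rest outside the cell cycle, and many genes of this machinery are transcribed under the E2F factors when a cell prepares to divide.

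Between 32863805 and 42772261 reads were counted per library, and levels are given as CPM, the counts of a gene scaled to the library total. The member with the fewest reads in any library, Gins1, had 292 there, so none of the members was near the limit of detection. Nr4a1 was at 13.8 ± 1.18 CPM in controls and 9.13 ± 0.623 CPM in CDKO pools (SD, n = 3), and Nr4a3 had no read in any library. HSC markers were present in both groups, among them Kit, the receptor for stem cell factor, at 2046 and 1631 CPM, Ly6a at 186 and 325 CPM, and Hlf at 630 and 521 CPM. Markers of mature or other blood cells differed between the groups. The 9 neutrophil markers summed to 775 to 1019 CPM in controls and 15.4 to 80.96 CPM in CDKO pools, with the highest CDKO value in replicate 3. All 9 passed the test as lower, led by Retnlg, Mmp9 and Lcn2, and none was at 0 throughout a group. The 10 erythroid markers summed to 482 to 546 and 51.5 to 88.6 CPM, and of the 7 tested, 6 passed as lower, with Slc4a1, Rhd and Klf1 first. The globin genes Hba-a1 and Hbb-bt were at 0 in all libraries and Hbb-bs in the control pools. The 7 mast cell and basophil markers summed to 199.9 to 259 and 6.64 to 10.6 CPM, and Prss34, Fcer1a and Ms4a2 led the 5 that passed as lower, while Cma1 was at 0 in all libraries and Gzmb at 0 in the control pools only. Lymphoid markers summed to 46.02 to 54.5 and 57.7 to 61.4 CPM, with Cd3e, Cd3g, Ms4a1 and Pax5 at 0 in all libraries and Il7r in the CDKO pools, and monocyte and macrophage markers to 65.9 to 71.7 and 72.9 to 78.8 CPM. The part of such cells in the values of replication genes was not tested, and in bulk RNA a change in the number of cells of a type cannot be told apart from a change of RNA per cell.

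Replication genes were more often higher than lower in CDKO HSC, by small amounts. Of the 43 members, 21 rose, 48.8% of them, against 31.1% of the 13734 genes tested (limma on log2(CPM + 1), adjusted p under 0.05 over all genes tested). Only 5 fell, 11.6% of members, against 35.2% of all genes tested. In either direction 26 members were called, or 60.5%, below the 66.2% of all genes tested. The median difference in log2(CPM + 1), CDKO minus control, was 0.14 over the members and -0.02 over all genes tested, and the members' middle range, from the lower to the upper quartile, ran from -0.05 to 0.28 against -0.39 to 0.29 for all genes. Changes of at least 1.5-fold in mean CPM were rare, with 3 members (Gins1, Pola1 and Dna2), 6.98% of them, against 31.9% of all genes tested. The pools of the groups did not overlap for 27 members, 62.8% of them, 23 higher and 4 lower in CDKO, against 70.6% of all genes tested. Summed over all members the level was 4071, 3912 and 4073 CPM in the control pools and 4448, 4347 and 4470 CPM in the CDKO pools, a sum in which the most abundant genes weigh most. Mki67, a marker of cycling cells that is not a member, was at 326.9 ± 18.4 CPM in controls and 331.7 ± 23.4 CPM in CDKO pools. Its pools overlapped and it did not pass (limma adjusted p = 0.775). The share of cycling cells was not tested. The authors' deposited table gave 22 members higher and 4 lower at the same threshold, 25 of them called here too, from the same libraries. P-values measure the spread between these pools. The labels name no preparation batch, so genotype and any preparation shared within a group cannot be told apart.

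**Figure D1:**
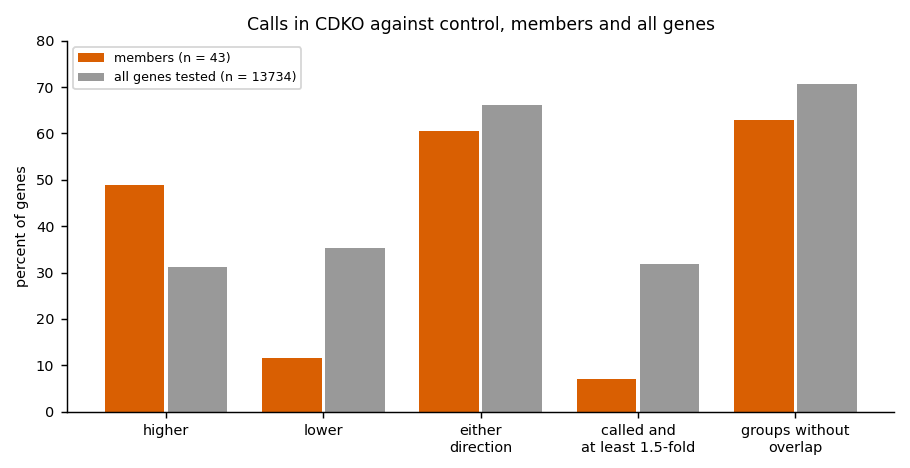
Percent of the 43 replication genes (orange) and of the 13734 genes tested (grey) in each class on the x axis, by limma at an adjusted p under 0.05 for the calls. Members were higher in CDKO in 48.8% against 31.1%, lower in 11.6% against 35.2%, and past 1.5-fold in 6.98% against 31.9%.

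**Figure D2:**
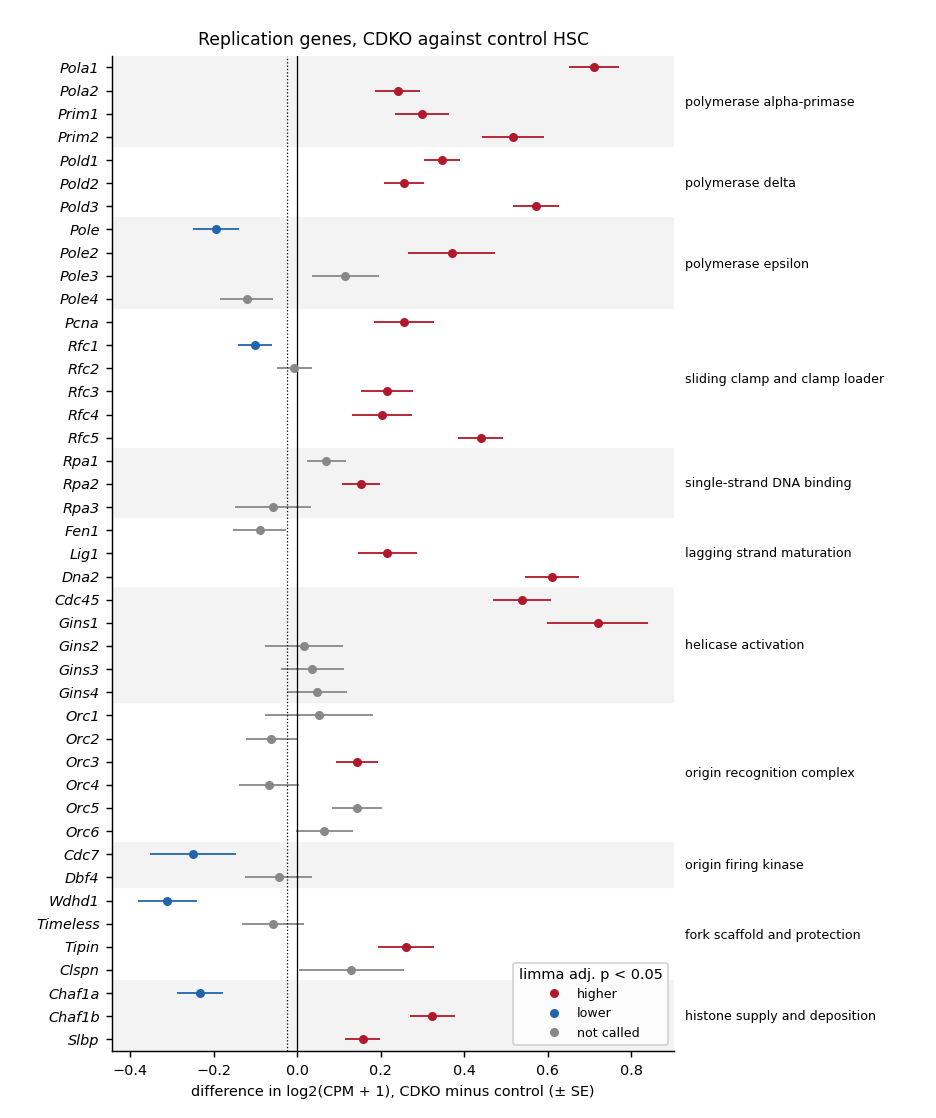
Difference in log2(CPM + 1), CDKO minus control, with its SE from limma (3 pools each), for all 43 members grouped by role; red and blue mark members called higher and lower, grey those not called, and the dotted line is the median of all genes tested, -0.02. The 4 polymerase alpha-primase members and the 3 polymerase delta members are to the right of 0 (Pold4, no member and not drawn, was at -0.47), while most origin recognition genes lie near it.

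The subunits of polymerase alpha-primase, which starts every new strand with a short primer, rose together, 4 of 4. Pola1, the catalytic subunit (mm10 chromosome X, 93304767 to 93632155), was measured at 61.7, 65.4 and 66.9 CPM in the control pools and at 110.1, 99.8 and 109.7 CPM in the CDKO pools. Every CDKO pool lay far above every control pool, and the log2 difference was 0.71 (SE 0.06, limma adjusted p = 2.09e-06). Prim2, the large primase subunit, was at 38.6, 34.2 and 38.8 CPM in controls and 53.4, 55.6 and 51.9 CPM in CDKO pools, again without overlap (log2 difference 0.52, SE 0.07, limma adjusted p = 8.93e-05). Prim1, the subunit that makes the RNA primer, rose from 66.0 ± 2.18 to 81.5 ± 5.99 CPM. Pola2, the accessory subunit that tethers the complex, rose least of the 4, from 91.5 ± 4.79 to 108 ± 1.57 CPM (limma adjusted p = 0.00193). Their calls held under all 18 alternatives that were run.

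Polymerase delta, which copies the lagging strand, was divided: of its 4 subunit genes, the 3 among the members rose and Pold4, which is not a member, fell. Pold4, the smallest subunit, was at 39.1, 35.7 and 39.1 CPM in controls and 27.1, 28.4 and 25.8 CPM in CDKO pools, without overlap (log2 difference -0.47, SE 0.08, limma adjusted p = 0.00036). Pold3, an accessory subunit that also acts in repair of broken forks (chromosome 7, 100082111 to 100121565), stood at 103, 98.8 and 103 CPM in controls and 141, 153 and 162 CPM in CDKO pools. Its lowest CDKO pool was well above its highest control pool, and the log2 difference was 0.57 (SE 0.06, limma adjusted p = 5.86e-06). Pold1, the catalytic subunit, was at 214, 206 and 211 CPM against 266, 258 and 278 CPM (log2 difference 0.35, SE 0.04, limma adjusted p = 3.31e-05). Pold2, which joins the other subunits, rose from 136 ± 5.39 to 162 ± 4.46 CPM. The calls of Pold1, Pold2 and Pold3 held under all 18 alternatives.

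Polymerase epsilon, the leading strand enzyme, was split. Its catalytic subunit gene Pole was at 162, 148 and 147 CPM in controls and 139, 126 and 134 CPM in CDKO pools, lower in 3 of 3 (log2 difference -0.19, SE 0.06, limma adjusted p = 0.00903). This call was lost once values were corrected for GC content and length of transcripts (log2 difference -0.06, limma adjusted p = 0.415). Pole2, which links the enzyme to the helicase, went the other way, from 15.3, 14.6 and 14.7 CPM to 19.6, 18.1 and 20.97 CPM (log2 difference 0.37, SE 0.10, limma adjusted p = 0.00832), and kept its call throughout. The small histone-fold subunits did not pass. Pole3 was at 28.3 ± 1.01 and 30.8 ± 0.995 CPM, with pools that did not overlap, and Pole4 at 74.9 ± 4.45 and 68.8 ± 3.18 CPM, with pools that did.

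Among the clamp and its loader, 4 genes rose and 1 fell. Pcna, the ring that holds polymerases on DNA, was at 75.8, 65.1 and 74.5 CPM in controls and 91.3, 80.4 and 86.2 CPM in CDKO pools, an increase of 1.20-fold (limma adjusted p = 0.00788). The annotation holds Pcna pseudogenes, and how reads that match both were counted is not given in the sources used here. The loader opens the ring and has a large subunit, Rfc1, and 4 small subunits. Rfc5 rose most, from 121, 110 and 120 CPM to 166, 160 and 152 CPM, without overlap (log2 difference 0.44, SE 0.05, limma adjusted p = 3e-05). Rfc3 rose from 58.2 ± 2.21 to 67.7 ± 3.13 CPM and Rfc4 from 57.4 ± 4.12 to 66.2 ± 4.43 CPM. Rfc2 did not differ beyond its spread, at 224 ± 5.00 and 223 ± 7.03 CPM (limma adjusted p = 0.899). Rfc1 was at 252, 242 and 254 CPM and 236, 229 and 232 CPM, a difference of -0.10 on the log2 scale that only just passed (limma adjusted p = 0.0453). It was lost under 10 of 18 alternatives, edgeR (adjusted p = 0.0827), DESeq2 (adjusted p = 0.059) and TMM scaling (limma adjusted p = 0.082) among them. The call of Rfc4 was lost without control replicate 1, control replicate 2 or CDKO replicate 1 (limma adjusted p = 0.0615, 0.118 and 0.107). Exons of Lat2, Eif4a2 and Wsb2 lie opposite 15.1%, 12.7% and 10.7% of the exon bases of Rfc2, Rfc4 and Rfc5.

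The genes for the single-strand DNA binding trimer, which coats the unwound template, changed little. Rpa2, the subunit phosphorylated under replication stress, was at 116, 111 and 113 CPM and 125, 127 and 127 CPM, a small but separate rise (log2 difference 0.15, SE 0.05, limma adjusted p = 0.0109). Rpa1, the large subunit, was at 274 ± 15.9 and 287 ± 2.57 CPM and was called only after the GC and length correction, with or without the replicate block (limma adjusted p = 0.0159 and 0.0285). Rpa3, the smallest, was at 27.0 ± 1.97 and 25.9 ± 1.43 CPM and did not pass.

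Of the genes that finish the lagging strand, Dna2 stood out. This nuclease and helicase trims long flaps and also acts at stalled forks (chromosome 10, 62947026 to 62974185). It was at 57.5, 61.5 and 66.0 CPM in controls and 89.6, 95.3 and 98.9 CPM in CDKO pools, 1.53-fold higher (log2 difference 0.61, SE 0.07, limma adjusted p = 1.09e-05). Fen1, which cuts short flaps, was at 220, 207 and 219 CPM against 187, 196 and 225 CPM. CDKO replicate 3 was its highest pool and the other two CDKO pools its lowest, so the groups overlapped (limma adjusted p = 0.236). With that pool left out Fen1 passed as lower, at a log2 difference of -0.17 (limma adjusted p = 0.0137). An annotated antisense RNA covers 78.8% of the exon bases of Fen1. The labels do not say that counting used strand, so its count may hold reads of either strand. How reads on bases shared with another gene were counted is not given either, so such reads may also have been left out. Both limits hold for every member with exons opposite another gene. Lig1, the ligase that seals the nicks, rose from 206, 172 and 196 CPM to 239, 206 and 221 CPM (limma adjusted p = 0.0172), with its lowest CDKO pool barely above its highest control pool. That call was lost without control replicate 2 or CDKO replicate 1 and with no filter (limma adjusted p = 0.0874, 0.074 and 0.0552).

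Helicase activation showed an uneven pattern. Cdc45, the factor that joins MCM and GINS into the active helicase (chromosome 16, 18780447 to 18811987), was at 35.3, 35.1 and 34.5 CPM and rose to 53.0, 52.0 and 48.8 CPM (log2 difference 0.54, SE 0.07, limma adjusted p = 3.79e-05). Gins1, 1 of the 4 subunits of GINS (chromosome 2, 150905400 to 150931280), and Pola1 had the largest log2 differences of the members, and which of them led changed with the setting. Gins1 was at 9.31, 8.01 and 9.96 CPM in controls and 15.6, 15.4 and 15.7 CPM in CDKO pools, with almost no spread in the CDKO group (log2 difference 0.72, SE 0.12, limma adjusted p = 0.00029). The other GINS genes did not follow it. Gins2 was at 30.0 ± 2.82 and 30.3 ± 1.68 CPM, Gins3 at 34.6 ± 1.93 and 35.4 ± 0.558 CPM, and Gins4 at 39.4 ± 1.98 and 40.7 ± 1.06 CPM, each with overlapping pools. For Gins2, 67.3% of the annotated exon bases lie opposite exons of Gse1, which fell from 333 to 236 CPM.

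Of the 6 origin recognition genes, 1 rose and none fell, with a median log2 difference of 0.06. Orc3, a core subunit, was at 139, 153 and 142 CPM in controls and 158, 157 and 165 CPM in CDKO pools (log2 difference 0.14, SE 0.05, limma adjusted p = 0.023). Its lowest CDKO pool was only slightly above its highest control pool, and its call was lost without control replicate 1, control replicate 3 or CDKO replicate 3 (limma adjusted p = 0.0861, 0.073 and 0.0726). Orc5 was close to the threshold, at 70.6, 67.5 and 70.4 CPM and 82.2, 73.9 and 74.7 CPM (limma adjusted p = 0.0529), and was called under 7 alternatives, among them TMM scaling (limma adjusted p = 0.0388), edgeR (adjusted p = 0.0442) and DESeq2 (adjusted p = 0.0465). Orc1, the subunit whose level rises and falls with the cell cycle, was at 9.49, 10.2 and 11.6 CPM and 10.04, 10.6 and 11.9 CPM, with groups that overlapped (limma adjusted p = 0.738). Orc2 was at 75.7 ± 1.07 and 72.6 ± 4.82 CPM, Orc4 at 77.2 ± 3.498 and 73.8 ± 6.63 CPM, and Orc6, the subunit that helps to load the MCM ring, at 54.3 ± 1.62 and 56.9 ± 3.96 CPM. These did not pass under any of the 18 alternatives. Exons of Nif3l1 lie opposite 29.8% of the exon bases of Orc2.

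The kinase that fires origins did not rise. Cdc7, its catalytic subunit, was at 59.9, 55.3 and 66.5 CPM in controls and 45.5, 47.6 and 60.0 CPM in CDKO pools. It was the only called member whose pools overlapped, with CDKO replicate 3 inside the range of the controls (log2 difference -0.25, SE 0.10, limma adjusted p = 0.0497). The call was lost under 11 of 18 alternatives, with an adjusted p from 0.0035 without CDKO replicate 3 to 0.197 without control replicate 3. Dbf4, the activating subunit, was at 43.1 ± 2.01 and 41.8 ± 3.36 CPM and did not pass.

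Genes of the fork scaffold and of fork protection went both ways. Wdhd1, which ties polymerase alpha to the helicase (chromosome 14, 47240944 to 47276857), fell in all pools, from 83.3, 86.5 and 95.4 CPM to 71.5, 76.0 and 65.7 CPM (log2 difference -0.31, SE 0.07, limma adjusted p = 0.00223). It was the only lower call that held under all 18 alternatives. Tipin rose from 87.0, 80.9 and 91.9 CPM to 110.0, 95.5 and 106.6 CPM (limma adjusted p = 0.00482). Its protein partner gene Timeless, with which it steadies the moving fork, was at 105 ± 8.13 and 101 ± 9.13 CPM and did not pass. Clspn, the claspin gene, which passes a stalled-fork signal to the kinase CHK1, was at 27.8, 27.3 and 26.7 CPM and 34.4, 32.9 and 23.7 CPM, with CDKO replicate 3 below and the other CDKO pools above all control pools. Of the 18 alternatives, it passed only in the one that leaves out that pool, as higher by 0.29 in log2 (limma adjusted p = 0.0155).

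The chromatin assembly factor, which places new histones behind the fork, showed opposite calls for its subunits. Chaf1a (chromosome 17, 56040439 to 56072289) was at 110, 115 and 106 CPM in controls and 96.2, 88.5 and 97.1 CPM in CDKO pools (log2 difference -0.23, SE 0.06, limma adjusted p = 0.00322). The difference shrank to -0.06 after the GC and length correction (limma adjusted p = 0.331), and 52.5% of the exon bases of Chaf1a lie opposite exons of Ubxn6, which fell from 85.6 to 69.9 CPM. Chaf1b rose from 117, 111 and 109 CPM to 136, 137 and 149 CPM (log2 difference 0.32, SE 0.05, limma adjusted p = 0.000258). Slbp, which binds the end of histone messages and is needed for histone supply in S phase, was at 164, 165 and 170 CPM and rose in every CDKO pool, to 185, 187 and 185 CPM (limma adjusted p = 0.00552).

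**Figure D3:**
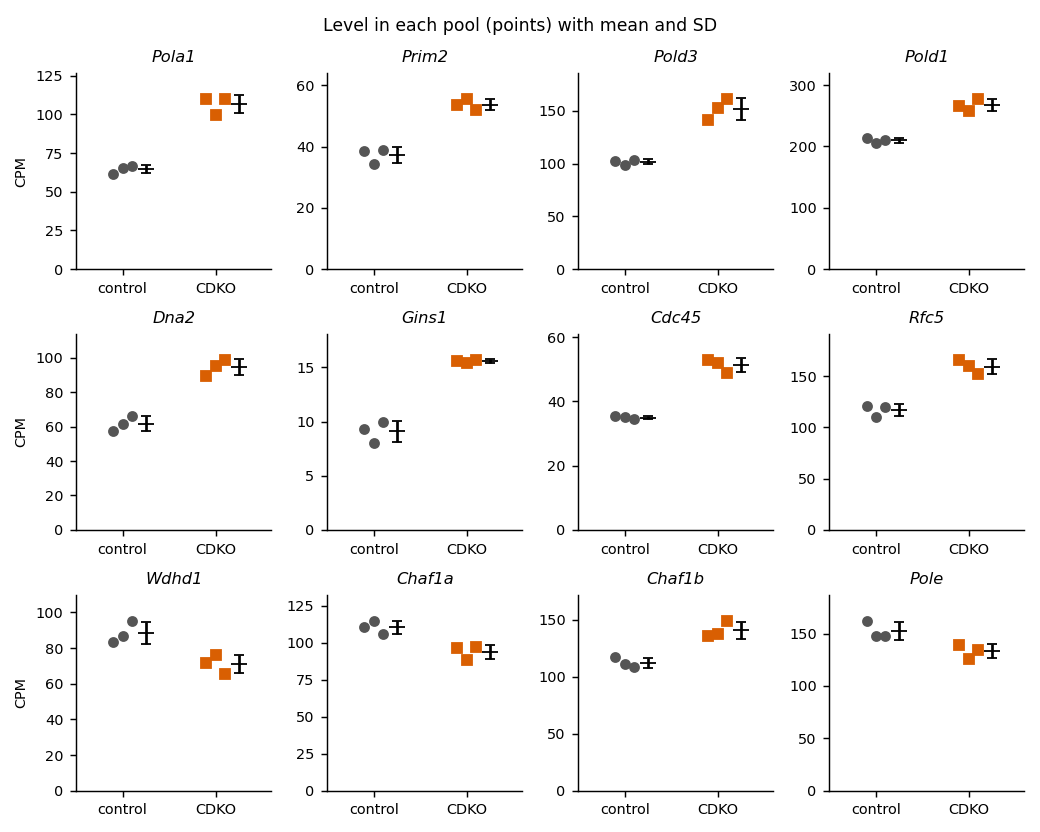
CPM in each pool for 12 members (grey circles, 3 control pools; orange squares, 3 CDKO pools), with mean and SD beside them; each y axis starts at 0. In the first 8 panels every CDKO pool is above every control pool, while Wdhd1, Chaf1a and Pole are lower in CDKO pools and Chaf1b higher.

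Over the set, 19 of the 26 calls held under all 18 alternatives, 18 of the 21 higher and 1 of the 5 lower. With the GC and length correction the split was 23 higher and 2 lower, 92.0% higher among called members in place of 80.8%, the 2 being Wdhd1 and Cdc7. Leaving out CDKO replicate 3, the CDKO library with the most neutrophil RNA, gave 21 higher and 5 lower again, but not the same genes: Rfc1 and Orc3 lost their call, and Fen1 and Clspn gained one.

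Levels between genes were set side by side per kilobase, dividing CPM by the length of all annotated exons or of the longest transcript, since longer RNAs give more fragments. In control pools the members ranged from Orc1, at 3.00 ± 0.313 CPM per kb of exons (3.46 ± 0.361 by the longest transcript), to Fen1, at 88.8 ± 2.90 CPM per kb (90.6 ± 2.96). Both ends of the range were the same by both lengths. The control level per kb of Orc1 was thus below that of every other ORC gene, the next being Orc4 at 10.4 ± 0.469 CPM per kb of exons and Orc5 at 18.6 ± 0.458 CPM per kb of the longest transcript. In polymerase epsilon the lowest was Pole2, at 5.16 ± 0.143 CPM per kb of exons, and it stayed lowest in CDKO pools at 6.79 ± 0.502. Within GINS the highest was Gins4, at 29.2 ± 1.47 CPM per kb by both lengths. Gins1 and Gins2 were at 6.0 ± 0.657 and 7.31 ± 0.689 CPM per kb of exons in control pools, and at 10.3 ± 0.102 and 7.39 ± 0.409 in CDKO pools. Which of them was higher in control pools depended on the length used. By the longest transcript Gins1 was at 8.37 ± 0.916 and Gins2 at 7.68 ± 0.724. For Gins2 and Fen1, 67.3% and 78.8% of the exon bases lie opposite exons of another gene. Their levels per kb were not corrected for this. The 3 polymerase delta members were above the polymerase alpha-primase genes, with Pold3, their lowest, at 22.1 ± 0.550 and Prim1, the highest of the other, at 17.1 ± 0.563 CPM per kb of exons. By the longest transcript Pold3, at 33.2 ± 0.825, and Pola2, at 31.8 ± 1.67, lay within their spread.

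**Figure D4:**
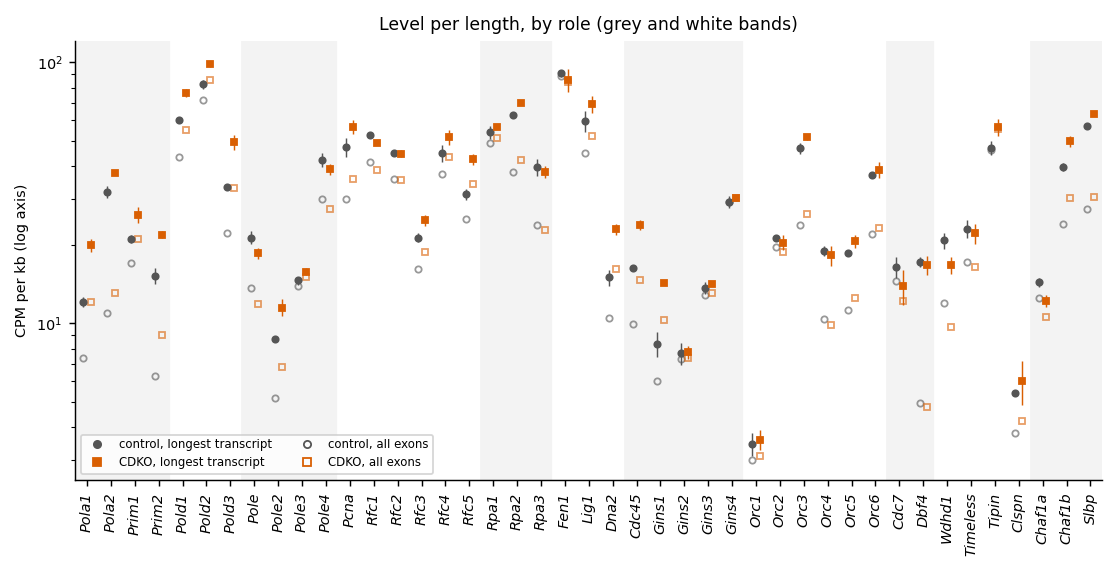
Level of each member as CPM per kb (log axis), by longest transcript (filled) and by all exons (open), in control (grey circles) and CDKO pools (orange squares), mean of 3 pools with SD on the filled points; bands separate the roles. Orc1 is lowest and Fen1 highest in control pools by both lengths.

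Promoters were examined for the word that E2F factors bind, since this family is known to drive many replication genes. The window ran from 250 bases before to 50 after each annotated start in the RefSeq table of build GRCm38.p6 (mm10), which held 36 of the 43 members. Words searched on both strands were TTTCCCGC, TTTCGCGC, TTTGCCGC and TTTGGCGC, and a match is a description of the letters, not a bound site. At least 1 of these 4 words was in the window of 11 members, or 30.6%, against 4.59% of the 10255 tested genes with a window and 2.60% of all 27025 genes with one. CCAAT, the letters that the factor NF-Y binds, was in 50% of members and 42.6% of tested genes. Members' windows were slightly richer in G and C, with a median of 63.2% against 60.3% in tested genes, and all 4 E2F words hold CG. Of the 11 members with a word, 7 rose and none fell, with a median log2 difference of 0.21, and of the 25 without, 11 rose and 4 fell, with a median of 0.12. Over all genes tested 31.1% were higher and 35.2% lower. Calls among tested genes with a word were not counted, so this split is a description only. It leaves out the members without a window, which were Gins1, Prim2 and Tipin (higher), Pole (lower), and Rfc2, Gins2 and Gins4 (not called). The members with a word were Pola1, Pold1, Pold3, Pole2, Pole4, Rfc3, Lig1, Gins3, Orc1, Orc3 and Clspn.

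The 6 members below carry a word wholly before a RefSeq start, and are shown to let called and uncalled genes be compared. By the GENCODE M21 annotation Rfc3, Pole4, Gins3 and Orc1 begin further upstream, and their words lie inside the gene. The place of the word before the start thus depends on the annotation, for all 3 uncalled genes among others. Each line runs 5′ to 3′ on the gene's strand from 20 bases before the word to the last base before the start, with the word in capitals, from RefSeq GRCm38.p6. The windows are chrX:93632156-93632313 (minus strand) for Pola1, chr5:151651209-151651238 (minus) for Rfc3, chr4:34614943-34615003 (minus) for Orc3, chr6:82652875-82652928 (minus) for Pole4, chr8:95633498-95633558 (plus) for Gins3 and chr4:108579407-108579453 (plus) for Orc1.
Pola1: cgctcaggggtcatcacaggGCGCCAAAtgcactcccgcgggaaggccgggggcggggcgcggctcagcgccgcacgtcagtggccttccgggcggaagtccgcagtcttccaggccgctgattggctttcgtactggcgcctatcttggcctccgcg
Rfc3: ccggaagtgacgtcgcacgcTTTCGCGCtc
Orc3: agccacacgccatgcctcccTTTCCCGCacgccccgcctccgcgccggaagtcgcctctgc
Pole4: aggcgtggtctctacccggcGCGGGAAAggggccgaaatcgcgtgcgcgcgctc
Gins3: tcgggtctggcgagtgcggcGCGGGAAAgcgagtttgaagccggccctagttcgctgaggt
Orc1: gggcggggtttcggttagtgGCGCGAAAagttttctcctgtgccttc
The first 3 genes rose and the last 3 did not pass the test. Words in capitals begin 138 bases before the start in Pola1 and 10 to 41 bases before it in the others. Orc3 and Gins3 carry the same word, on opposite strands and at the same distance of 41 bases, and differed in their call, with log2 differences of 0.14 and 0.04.

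**Figure D5:**
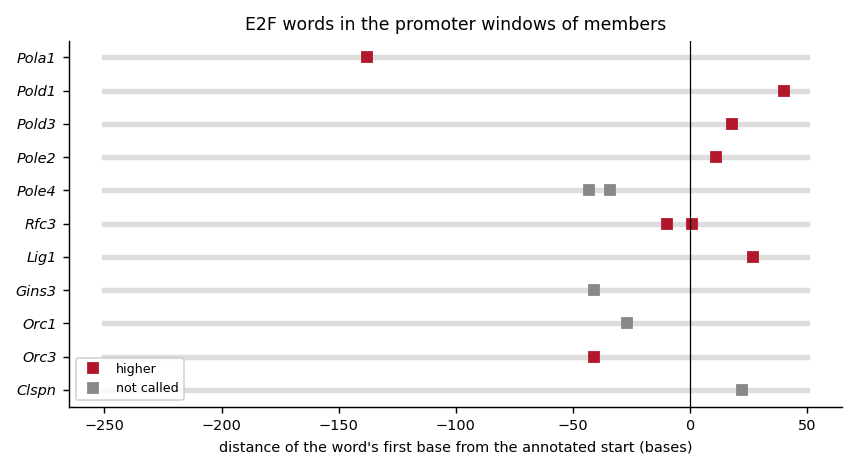
Distance in bases from the annotated start to the first base of each E2F word in the 11 members that hold one; grey bars are the window searched, red marks members called higher and grey those not called. Pole4 has 2 marks because the table holds 2 starts for it. All but the word of Pola1 lie within 50 bases of a start.

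Other lists of the replication pathway were counted beside the 31.1% higher and 35.2% lower of all genes tested, and none was tested as a set. Of 11 genes of the MCM helicase and its loading, 8 rose and 2 fell (72.7% and 18.2%), with a median log2 difference of 0.29. Mcmbp, an MCM-binding chaperone, rose from 109 ± 4.25 to 152 ± 1.67 CPM (limma adjusted p = 6.71e-06), and the helicase subunit Mcm6 from 723 ± 36.0 to 990 ± 40.9 CPM. Cdt1, which brings MCM to ORC, rose from 89.7 ± 2.46 to 122 ± 7.15 CPM. The 2 that fell were Cdc6, the other loader, from 89.4 ± 3.00 to 72.5 ± 7.2 CPM, and Gmnn, the inhibitor of Cdt1, from 47.2 ± 6.91 to 33.5 ± 0.812 CPM. All the 6 MCM ring genes were among the higher ones. Of 22 other replisome and fork factors 9 rose and 4 fell (40.9% and 18.2%), with a median of 0.15. Chtf8, a subunit of an alternative clamp loader, fell from 113 ± 7.05 to 71.1 ± 5.08 CPM while Chtf18, its partner, rose from 55.3 ± 2.83 to 78.0 ± 2.40 CPM, and Rnaseh2a, which removes RNA from DNA, rose from 58.4 ± 1.42 to 84.7 ± 2.08 CPM.

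All 11 genes of deoxynucleotide supply were called, 7 higher and 4 lower (63.6% and 36.4%). Rrm1, the large subunit of ribonucleotide reductase, rose from 310 ± 13.9 to 388 ± 25.6 CPM, and Tk1, the thymidine kinase, from 48.1 ± 5.04 to 68.3 ± 4.98 CPM. Rrm2b, the reductase subunit used outside S phase, fell from 33.6 ± 1.86 to 20.1 ± 0.586 CPM (limma adjusted p = 2.8e-05), while the S phase subunit Rrm2 fell from 155 ± 10.7 to 129 ± 8.62 CPM. The replication checkpoint was divided, with 5 of 10 genes higher, 4 lower (50% and 40%) and a median of 0.03. Chek1, its effector kinase, rose from 19.1 ± 2.99 to 35.4 ± 1.73 CPM. Hus1, part of the ring that marks stalled forks, fell from 75.6 ± 4.88 to 34.4 ± 1.85 CPM (limma adjusted p = 4.28e-07, a log2 difference of -1.11), and Atrip, the partner of the kinase ATR, from 67.1 ± 2.10 to 36.3 ± 3.02 CPM. All 3 differed more, in log2, than any of the 43 members.

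Of 13 genes of the E2F and RB family, 5 rose and 3 fell (38.5% and 23.1%), with a median log2 difference of 0.07. E2f2, an activating factor, rose from 13.7 ± 0.793 to 26.6 ± 3.504 CPM (limma adjusted p = 4.17e-05). E2f5, counted among the repressing factors, fell from 19.6 ± 0.164 to 8.10 ± 1.85 CPM, and Tfdp2, a dimer partner, fell from 200.3 ± 2.09 to 146 ± 4.75 CPM. E2f1 was at 88.4 ± 6.62 and 85.9 ± 6.996 CPM and did not pass (limma adjusted p = 0.636).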

How the data were processed

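The deposited table gives, per gene and library, CPM made by the authors from read counts with TopHat2, HTSeq and DESeq2 on mm10, named without versions per the submitters' processing notes; the gene annotation is not given in the sources used here. Per the labels, RNA was amplified with a SMARTer ultra low input kit and made into Nextera XT libraries. All CPM values above 0 were whole multiples of 1 read to within 0.01 of a read, so reads were recovered, and 1 read was worth 0.0234 to 0.0304 CPM. The authors' deposited baseMean is a size-factor scaled signal, their fold change is on the log2 scale and sets control over CDKO, and their stat is a score. The authors' deposited adjusted p-value was used for a count only.

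Genes with a mean of at least 10 recovered reads were tested with limma 3.58.1 (R 4.3.3) on log2(CPM + 1), eBayes with a mean-variance trend, CDKO minus control, Benjamini-Hochberg adjusted p under 0.05, two-sided; 13734 genes and all 43 members were tested. Fold changes on this scale are understated for low genes. Genes with a date for a name (12) were left out. Members and lists were chosen with earlier results of these data known, and tests of lists as sets were not run. All members are named. From each other list the text names the 3 with the lowest p at most. Pold4, Cdc6, Gmnn, Rrm2, E2f1, Mki67, Ubxn6, Gse1, Nif3l1 and markers at 0 were added after their values were seen. So were the 3 uncalled promoters shown. Of 119 list entries 118 were found, Adgre1 as Emr1. Lengths, GC content and exon overlaps came from GENCODE M21 (mm10). The alternatives blocked on replicate number, removed by loess the trend of every library with GC and transcript length (values for 99.1% of tested genes), did both together, left out each library, changed the filter (none, 50 reads, 10 CPM), scaled by TMM or quantiles, or took a pseudocount of 0.5 or 5. Recovered reads were also tested with edgeR 4.0.16, which called 4289 genes higher and 4500 lower, and DESeq2 1.42.0, with 4307 and 4484. The procedures were tested on simulated data. SD is over 3 pools.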

Additional observations from a re-analysis of the deposited data

How the results depend on the processing

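Across the 18 alternatives the members called higher numbered 19 to 23 and kept their majority over those called lower. The 5 lower calls were 3 with TMM scaling, edgeR or DESeq2, and 2 with the GC and length correction, alone or with the replicate block; the cause was not tested. Leaving out 1 library at a time gave 3 to 5 lower calls, 3 without control replicate 1, control replicate 3 or CDKO replicate 2. With the replicate block the counts were 21 higher and 5 lower, as without it, and no member changed its call. The deviations of libraries with the same number (1, 2 and 3) correlated at 0.0518, 0.0483 and -0.0120. Those of control and CDKO libraries with unlike numbers correlated at -0.0651 to 0.0264, below the values of numbers 1 and 2. Whether the numbers pair the libraries is not stated in the sources used here, and these values do not settle it. The main test took the libraries as unpaired. The median log2 difference of the members was 0.161 by edgeR and by DESeq2. Single-word E2F matches (TTTCCCGC) were in 16.7% of members, against 2.30% of tested genes. Over all genes tested the GC and length correction gave 4739 higher and 4531 lower in place of 4265 and 4832. Signs turned only for members that were not called. Rfc2 was 0.0645 with the GC and length correction, 0.0079 with TMM, 0.0080 by edgeR and 0.0084 by DESeq2, and -0.0289 to 0.0164 leaving out 1 library. Timeless was 0.0503 with that correction and -0.118 to 0.0158 leaving out 1 library, and Rpa3 was 0.0216 after quantile scaling. Leaving out 1 library gave ranges of -0.0587 to 0.0699 for Gins2, -0.0120 to 0.1255 for Orc1, -0.122 to 0.0049 for Orc4 and -0.0858 to 0.0216 for Dbf4. Depth did not limit the members, since the lowest had 292 reads, while 3 pools per group limit what small differences can pass.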

Other observations

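Ratios of subunits within one library do not depend on how libraries are scaled to each other. For 5 pairs, picked after their values were seen, the ratio of CPM is given as a description, with no test, since the choice of pairs fixed the direction. Chaf1b over Chaf1a was 1.06, 0.963 and 1.03 in control pools and 1.41, 1.55 and 1.54 in CDKO pools. Pole2 over Pole was 0.094, 0.099 and 0.100 against 0.141, 0.143 and 0.156, and Gins1 over Gins4 was 0.224, 0.205 and 0.265 against 0.394, 0.369 and 0.386. The CDKO mean over the control mean was 1.36 for Rfc5 over Rfc2 and 1.26 for Tipin over Timeless, the last with one CDKO pool, at 0.881, close to the highest control pool, at 0.864. The GC and length correction is an alternative added after the data were seen. With it the difference in log2(CPM + 1) was 0.304 for Chaf1b and -0.064 for Chaf1a, in place of 0.324 and -0.233. For Pole2 and Pole it was 0.368 and -0.056, in place of 0.371 and -0.194.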
